A study of Nicotiana tabacum with 12 samples.

Results

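Histones are the proteins that package DNA in the nucleus. The nucleosome core is built from histones H2A, H2B, H3 and H4, and linker histone H1 binds where the DNA enters and leaves it. Bulk histone supply is coupled to DNA replication in dividing cells, while replacement forms are made throughout the life of a leaf cell, and plant histone transcripts carry poly(A) tails, so that poly(A)-based libraries can contain them. Histone genes form large families of near-identical copies, and in an allotetraploid such as tobacco (Nicotiana tabacum) each family is present from both ancestral genomes.

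The histone genes described here were the 165 of 69500 listed genes whose description named histone H2A, H2B, H3 or H4, or a linker histone. RNA was sequenced from seedling leaves in 12 libraries, 3 in each of 4 groups: wild type KY, wild type K326, a knockout labelled Q18 and an overexpression line labelled YOE. The study concerns the effect of NtCISZOG on leaf chlorophyll; by its name the enzyme glucosylates cis-zeatin, a cytokinin. Its design names a mutant K326-gk-8 and a line KY-OE-31, from which K326 was taken as reference for the knockout and KY for the overexpression line. The sources used here do not say if Q18 and YOE are those lines, nor do they give the allele, promoter, number of plants or number of lines. No gene description named NtCISZOG, so the labels could not be checked against it.

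A check on background came from genes that separate the wild types. In the whole table, 87 genes stood at 2 TPM or more in all K326 libraries and at 0.2 or less in all KY libraries, and 13 genes showed the reverse. In overexpression, 82 to 85 of the 87 reached 1 TPM, and 0 to 1 of the 13 did, so by these genes the libraries with the overexpression label were like K326 and unlike their KY reference. In the comparison with KY, overexpression and background therefore cannot be told apart, and the comparison with K326 is given beside it.

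Descriptions are InterPro domain names, and they split the 165 genes by role. H2A had 34 genes, H2B 25, H3 19 and H4 18, which gives the core histones. Another 3 genes joined an H3 domain to a WEB family domain, a family known from chloroplast movement in Arabidopsis, and 5 joined it to a ribonuclease H-like or pentatricopeptide domain. Linker histone H1 proper had 8 genes. The linker domain also occurred with an AT hook in 10 genes, the architecture of plant HMGA proteins, with a Myb domain in 12, the architecture of telomere-repeat binding proteins in Arabidopsis, and alone in 5. The remaining members were not histones: 16 were histone H3-K9 methyltransferases with the SRA-YDG domain, which binds methylated DNA, 6 were H3-K56 acetyltransferases of the CBP type, and 4 were Eaf6, a subunit of the NuA4 acetyltransferase complex known from yeast. The label "histone genes" therefore fitted the core and H1 classes, and the others are named by their domains.

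Of the 165 genes, 124 had at least 1 TPM (a transcript share corrected for length) in at least 3 libraries and were tested, and 13 were at 0 in every library. On the deposited values, 1 tested gene passed that filter only through the KY libraries and 1 only through the overexpression libraries. By their identifiers, 30 members carried a number before the letter g that at least 1 other member also carried. The largest such set, numbered 0000610, held 5 genes for H4, H2B, H2A, H4 and H2B. Near-identical copies can exchange reads, so the level of a single copy may be less certain than that of a class. How alike the members of a class are was not examined.

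The deposited table names no unit, and its values were taken as TPM. Library totals ranged from 334759 to 676862, so values are given as deposited and on a second scale. The median log2 difference over the 31311 genes tested was 0.24 in knockout against K326, -0.11 in overexpression against KY, 0.39 between K326 and KY (K326 minus KY) and -0.51 in overexpression against K326. Median scaling, which divides a library by the median of its ratios to the average library, brought these to 0.02, -0.01, 0.02 and -0.02. Overexpression replicates 1, 2 and 3 had scaling factors of 0.722, 0.516 and 0.867, and the largest factor was that of knockout replicate 2 (1.51). Green leaf markers, such as chlorophyll a-b binding proteins and the Rubisco small chain, summed to 65028 TPM or more in every library, as the leaf label has it. Markers of dividing cells (cyclins, kinesins, replication licensing factors) summed to 203 to 577 TPM.

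Core histone transcripts together made up 0.204 to 0.214% of the summed TPM in KY and 0.251 to 0.269% in K326. They made up 0.243 to 0.276% in the knockout and 0.239 to 0.347% in overexpression. Every KY library therefore lay below every other library on this share, which does not depend on the scaling. In overexpression the 3 libraries were uneven, at 0.347, 0.322 and 0.239% in replicates 1, 2 and 3.

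By class, H2A was the most abundant core histone on the TPM scale, with a sum over its genes of 331 ± 20.2 TPM in KY and 562 ± 51.3 in K326 (SD, n = 3 each, as for all values with ±). The knockout had 636 ± 67.3 TPM and overexpression 438 ± 78.3. H2B followed: KY had 259 ± 28.4 TPM, K326 387 ± 7.49, the knockout 413 ± 34.7 and overexpression 300 ± 55.3. H4 was lowest: KY had 154 ± 9.25 TPM, K326 206 ± 17.7, the knockout 251 ± 8.88 and overexpression 224 ± 30.4. As deposited, the KY sums of H2A and H4 lay below all other libraries. Median scaling changed this picture for H4, which ranged from 178 to 224 TPM in KY, 162 to 205 in K326 and 172 to 201 in the knockout, so these groups overlapped. The scaled H4 sums of overexpression were 351, 438 and 223 TPM in replicates 1 to 3, so that replicates 1 and 2, the libraries with the smallest scaling factors of all 12, lay above all 9 libraries of the other groups and replicate 3 among those of KY. H2A was also divided within overexpression, at 714, 697 and 504 TPM after scaling against 416 to 443 in KY. Scaled H2A was 457 to 545 TPM in K326 and 471 to 482 in the knockout, so KY stayed below all other libraries. Overexpression replicate 3 lay within the range of K326. The scaled H3 sums of overexpression were 391, 448 and 306 TPM against 323 to 336 in KY, so replicate 3 lay below every KY library. In bulk leaf, a larger share of cells that make histones and more histone RNA per cell cannot be told apart.

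**Figure D1:**
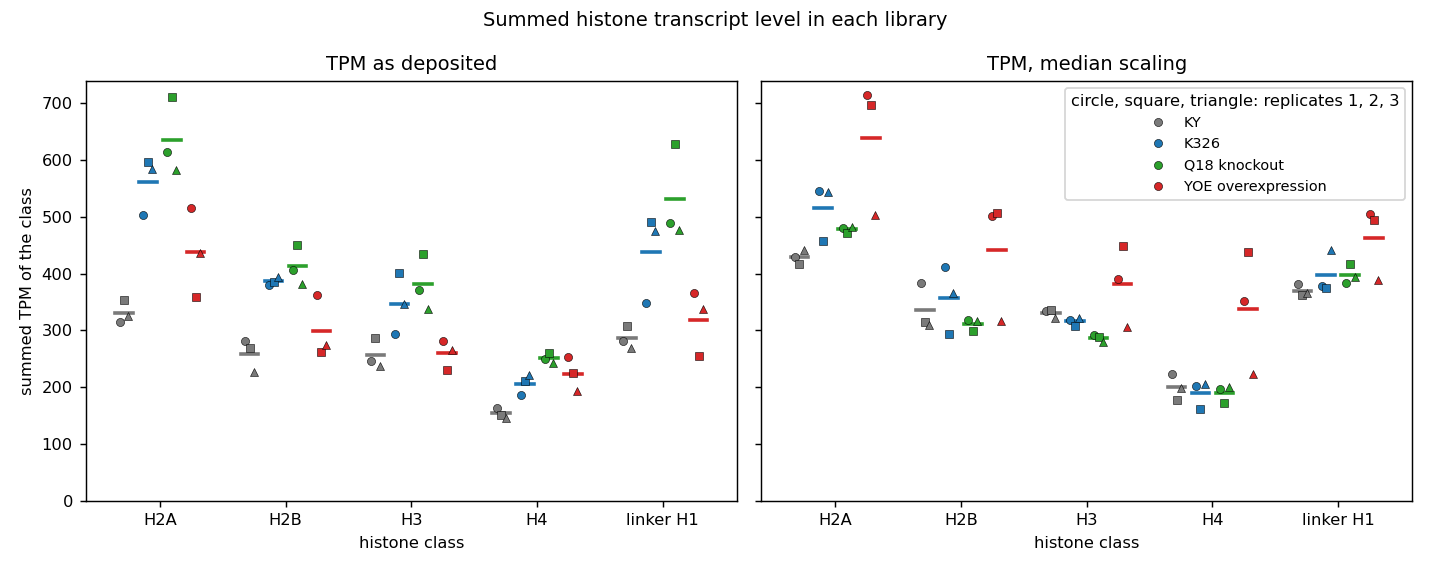
Summed TPM over the genes of each histone class (x axis) in each library, as deposited (left) and after median scaling (right); points are libraries, with circle, square and triangle for replicates 1, 2 and 3, and horizontal bars are group means (n = 3). After scaling, overexpression replicates 1 and 2 are the highest libraries for H4 (351 and 438 TPM), while replicate 3 (223 TPM) lies among the KY libraries.

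The classes differed in how evenly their genes shared the transcript. The H3 sum was dominated by Nitab4.5_0006824g0040, with 188 ± 23.9 TPM in KY and 251 ± 45.2 in K326. The same gene had 250 ± 37.2 TPM in the knockout and 158 ± 26.2 in overexpression. Only 2 of the 19 H3 genes had a mean of at least 5 TPM over the 12 libraries, the other being Nitab4.5_0000786g0100, against 20 of 34 H2A, 11 of 25 H2B and 11 of 18 H4 genes. The highest level of any member belonged to Nitab4.5_0000241g0210, described as H3 with WEB family and pentatricopeptide domains, at 295 to 591 TPM across the libraries. Which of its domains the reads came from was not tested. H2A was spread more evenly: Nitab4.5_0002077g0100, its highest gene, averaged 52.3 TPM. In H2B the highest genes were Nitab4.5_0003782g0080, with a mean of 57.9 TPM, and Nitab4.5_0000610g0170. Linker H1 had 7 of 8 genes with a mean of at least 20 TPM, led by Nitab4.5_0005721g0020 at 97.2 TPM. The proteins with an AT hook, a Myb domain or an enzyme domain were far lower, and the highest of them, the H3-K9 methyltransferase Nitab4.5_0002814g0020, averaged 14.2 TPM.

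Against KY, most histone genes that changed in the overexpression libraries were higher. Of the 124 tested members, 26 were higher and 3 lower by limma at an adjusted p of 0.05, as deposited, where 6.76% of all tested genes were higher and 11.5% lower. Among the 72 tested core histones, 21 were higher and 1 lower, with a median log2 change of 0.47. With median scaling, 43 of 125 members were higher and 9 lower, against 17.7% and 17.3% of all genes, and among 73 core histones 36 were higher and 1 lower. All 26 higher and all 3 lower genes called as deposited were also called in the same direction after scaling. Without the 2 genes that passed the filter through 1 group only, 25 of 122 members were higher and 2 lower, and 21 of 71 core histones higher and none lower. Scaling brought the H2A gene Nitab4.5_0003831g0050 and Nitab4.5_0005016g0020, an H3 gene with another domain, into the test. As deposited they stood at 1.84, 1.46 and 0.94 TPM, and at 0.73, 1.02 and 1 TPM, in overexpression. Both passed the scaled filter only through overexpression, and the scaled counts still hold them, so these include calls that follow from the filter. The count as deposited was 15, with 13 higher, when KY replicate 3 was left out. After scaling and without overexpression replicate 3 it was 57, with 51 higher. The smallest adjusted p-values and the count both come from 3 libraries a group, and nothing in the labels says that these were separate plants.

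Among H2A genes, 5 of 26 tested were higher and none lower. Nitab4.5_0000977g0020 stood at 13.6, 17.3 and 12.2 TPM in KY and at 41.0, 40.5 and 58.4 TPM in overexpression. The groups did not overlap, and the log2 change was 1.62 ± 0.21 (SE; limma adjusted p = 7.3e-05). Nitab4.5_0001985g0060 rose from 4.12, 6.45 and 4.94 TPM to 13.3, 14.6 and 12.0 TPM (log2 change 1.23, adjusted p = 6.2e-04 by limma). It is one of 2 H2A genes with consecutive identifiers. The 4 most abundant H2A genes gave no call on either scale: Nitab4.5_0002077g0100, for example, stood at 43.5 ± 7.81 TPM in KY and 37.4 ± 10.9 in overexpression.

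H2B had 8 genes higher of 18. One was lower, but it had passed the filter only through KY, where it was high, so its call follows from the filter. Nitab4.5_0009487g0010 was at 6.13, 5.33 and 6.53 TPM in KY and at 27.4, 14.4 and 15.7 TPM in overexpression (log2 change 1.48 ± 0.26, limma adjusted p = 8.9e-04). Replicate 1 was well above the other two, and all 3 lay above KY. A pair of low H2B copies, named after their values were seen, were listed at 0 in all KY libraries. Nitab4.5_0006213g0010 stood at 2.61, 3.00 and 2.13 TPM in overexpression, 0.54, 1.32 and 0.84 in K326 and 1.79, 1.34 and 0.81 in the knockout. Nitab4.5_0001163g0030 stood at 2.53, 4.26 and 1.69 TPM in overexpression and at 1.09 to 1.83 TPM across the K326 and knockout libraries. Both copies were above 0 in every library of overexpression, K326 and the knockout. They were picked with that pattern known, so they add nothing to the check on background. The lower H2B gene, Nitab4.5_0000070g0170, had the opposite pattern, at 2.90, 2.33 and 1.28 TPM in KY and at most 0.68 TPM in the 9 other libraries.

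H4 had 7 higher genes of 15 and none lower. Nitab4.5_0009655g0040 stood at 3.69, 3.39 and 5.48 TPM in KY and 16.6, 13.3 and 14.1 in overexpression, with no overlap (log2 change 1.61 ± 0.26, limma adjusted p = 4.4e-04). The most abundant H4 gene, Nitab4.5_0003782g0010, was at 35.7 ± 0.942 TPM in KY and 34.6 ± 7.16 in overexpression (log2 change -0.06, limma adjusted p = 0.892). For H3, 1 of 13 genes was higher, Nitab4.5_0000990g0020, a low copy at 1.02 TPM on average in KY and 3.37 in overexpression. Neither abundant H3 gene was called, on either scale. A call was also missing on both scales for the 3 genes that join H3 to a WEB family domain. Of the 5 genes that join H3 to other domains, 2 were tested. Nitab4.5_0005043g0050 stood at 0.67, 0.52 and 0.46 TPM in KY and at 1.93, 2.27 and 1.29 in overexpression; it passed the filter only through the overexpression libraries, so its values are given without a test. The other, Nitab4.5_0008221g0030, averaged 0.457 TPM in KY and 1.28 in overexpression. It stood at 1.15, 1.12 and 0.9 TPM in the knockout and below 1 TPM in every KY and K326 library. Without the overexpression libraries it would not have passed the filter, so it is also given without a test. The counts of higher members include it. Both were singled out after their values were seen.

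**Figure D2:**
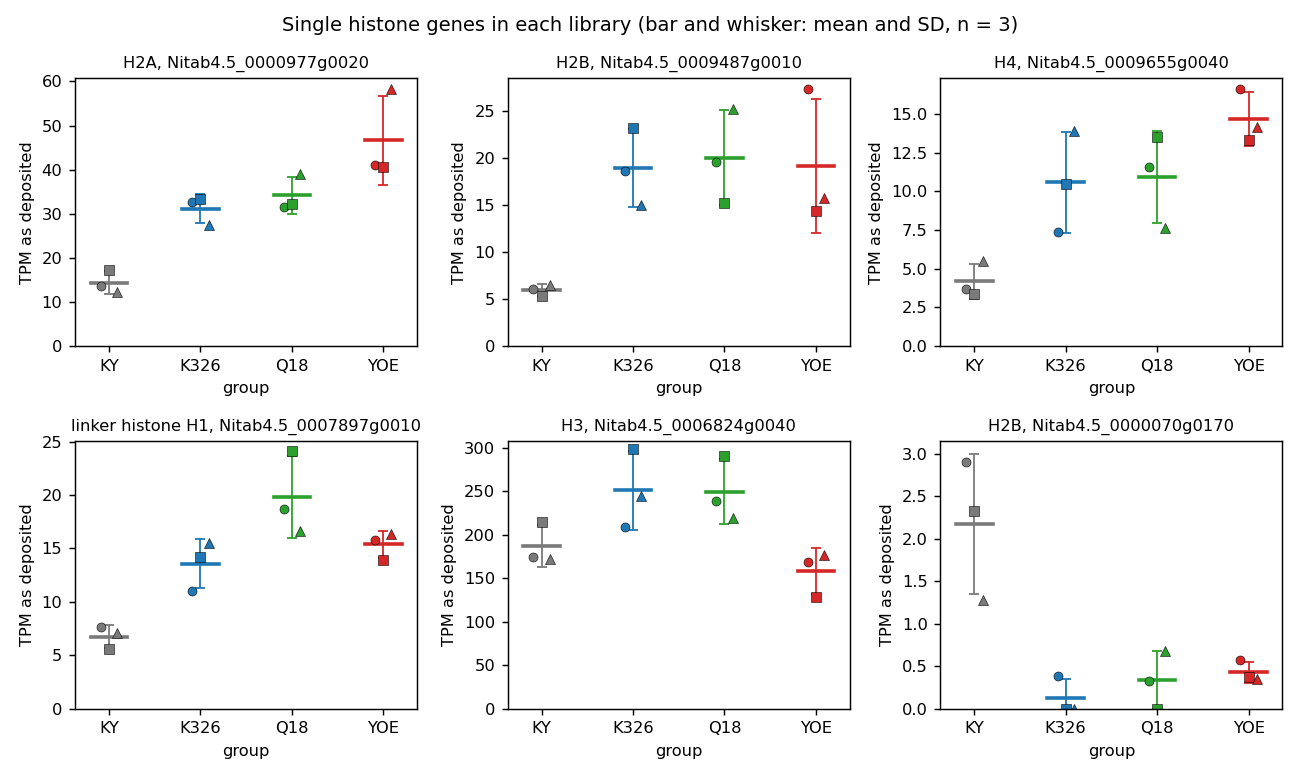
TPM as deposited of 6 histone genes (y axes, each from 0) in the 3 libraries of each group (x axes); horizontal bars and whiskers are group mean and SD (n = 3), and circle, square and triangle mark replicates 1, 2 and 3. The H2A gene Nitab4.5_0000977g0020 lies between 12.2 and 17.3 TPM in KY and between 40.5 and 58.4 TPM in overexpression, while the abundant H3 gene Nitab4.5_0006824g0040 overlaps between these groups.

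Linker histone H1 followed the core histones in part. Of its 8 genes, 3 were higher in overexpression than in KY and none lower, and 4 were higher after scaling. Nitab4.5_0007897g0010 stood at 7.61, 5.58 and 7.09 TPM in KY and 15.8, 13.95 and 16.4 in overexpression (log2 change 1.08 ± 0.21, limma adjusted p = 0.0021). Nitab4.5_0000187g0330 stood at 11.6, 9.92 and 8.43 TPM in KY and 20.1, 18.6 and 21.7 in overexpression (log2 change 0.95, adjusted p = 0.0054 by limma). The third, Nitab4.5_0004798g0020, rose from 11.9 ± 1.21 to 20.6 ± 5.17 TPM (limma adjusted p = 0.024). These were the lower-level H1 genes, and the 4 most abundant were not called: Nitab4.5_0005721g0020, for one, stood at 77.9 ± 7.24 TPM in KY and 72.9 ± 19.6 in overexpression.

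Calls were also counted by level. The tested core histone and linker H1 genes were grouped by their mean over all 12 libraries. Below 5 TPM, 10 of 28 were higher in overexpression than in KY, against 5.20% of all tested genes at that level. From 5 to 20 TPM, 9 of 22 were higher, against 8.31% of all genes, and at 20 TPM or more 5 of 30 were, against 9.78%. After median scaling the counts were 15 of 29, 16 of 22 and 9 of 30, against 14.5%, 21.9% and 21.6% of all genes.

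The linker-domain proteins that are not H1 gave no rise. Among 9 tested genes with an AT hook, Nitab4.5_0000201g0200 was lower, at 12.6, 12.6 and 8.47 TPM in KY and 2.39, 4.87 and 2.44 in overexpression (log2 change -1.56 ± 0.34, limma adjusted p = 0.0052). Of 11 genes with a Myb domain, Nitab4.5_0000142g0120 was lower, at 5.91, 6.20 and 4.96 TPM in KY and 2.89, 1.48 and 2.49 in overexpression (log2 change -1.05 ± 0.23, limma adjusted p = 0.0049). That gene was also lower in overexpression than in K326, at 5.88 ± 1.09 TPM there, on the deposited scale and after median scaling (limma adjusted p = 0.006 and 0.022). The 17 tested enzyme and complex-subunit genes gave no call as deposited, with 6 at an unadjusted p under 0.05, and median scaling gave 5 lower: 3 H3-K9 methyltransferases and 2 Eaf6 genes.

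**Figure D3:**
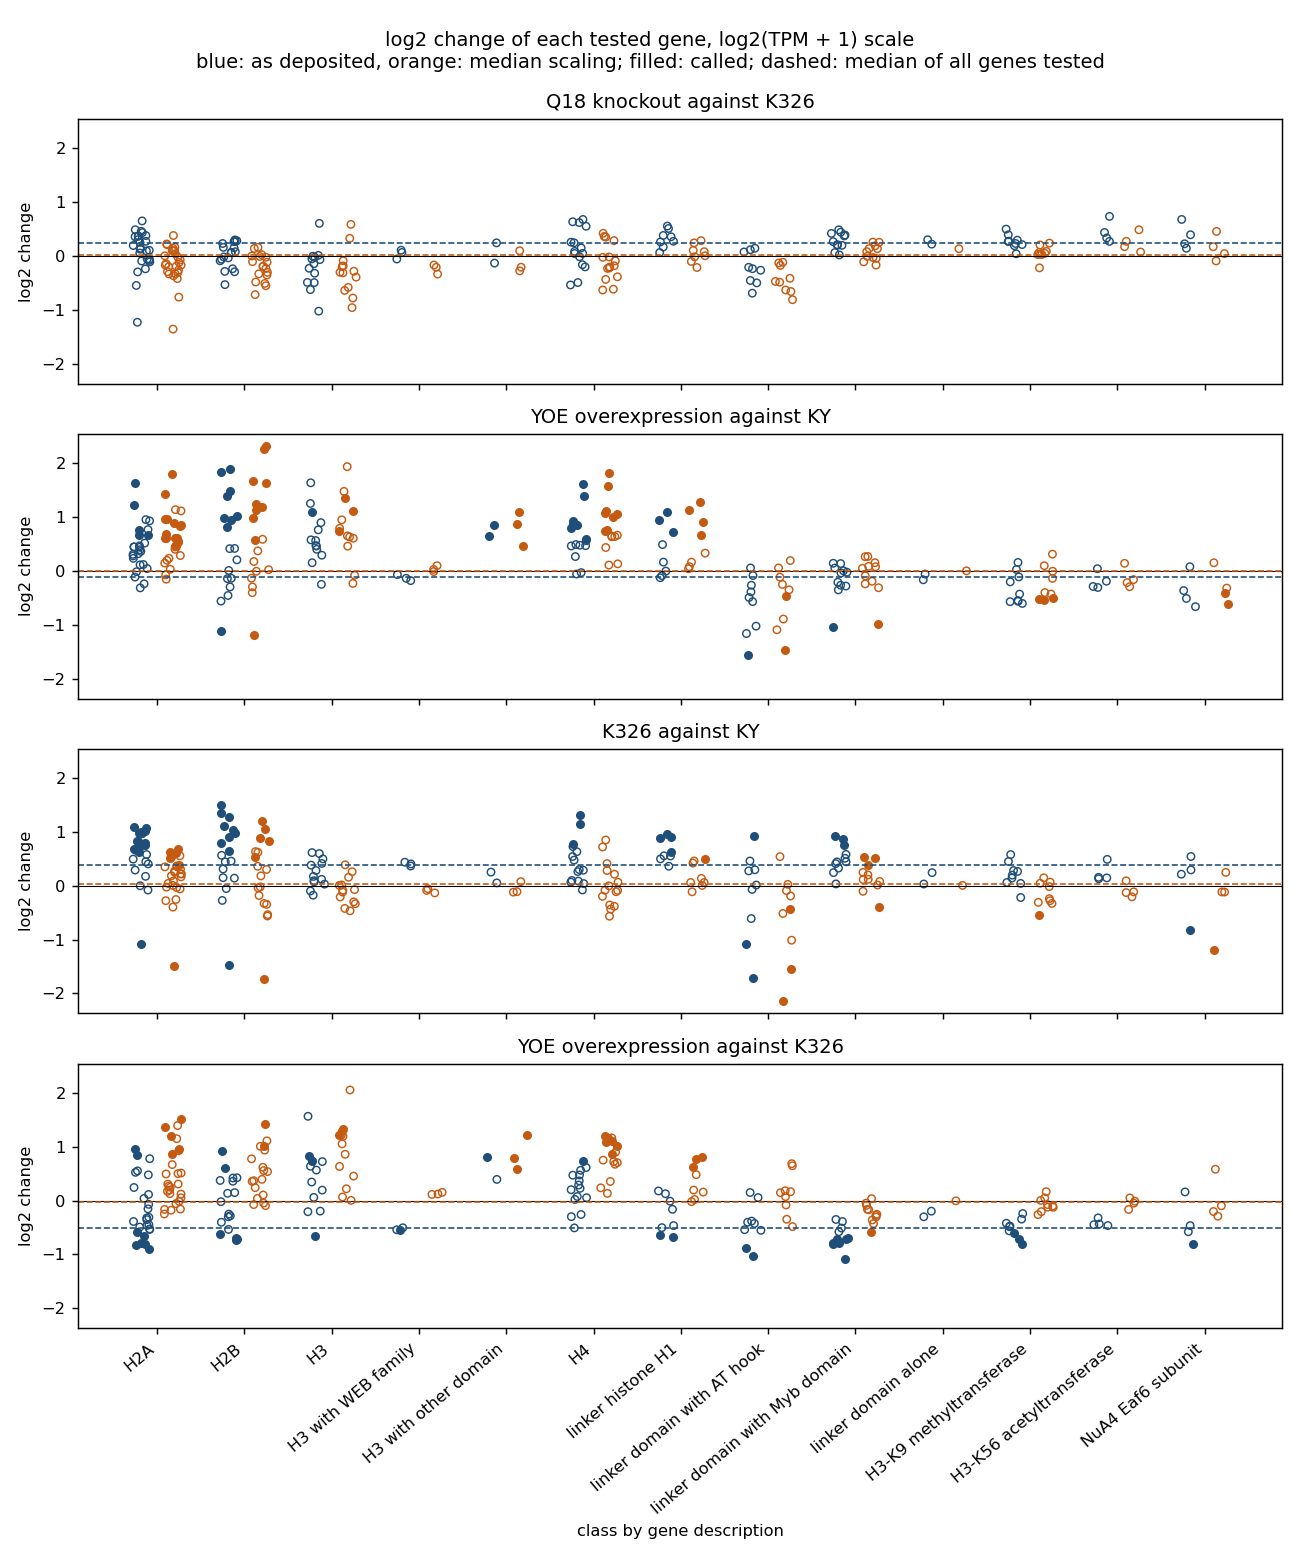
log2 change on the log2(TPM + 1) scale (y axis) of each tested gene, by class (x axis), in 4 comparisons (panels), as deposited (blue) and after median scaling (orange); filled points were called by limma at an adjusted p of 0.05, and dashed lines are the median of all genes tested. In overexpression against KY the core and H1 classes hold nearly all higher calls, while the knockout panel has no filled point.

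Genes that work with histones were counted in the same comparison, overexpression against KY, and none of the lists had a share of higher genes above the 6.76% of all tested genes. Replication licensing and fork genes (MCM, PCNA, ribonucleotide reductase and others), which act when histones are needed in bulk, had 2 higher and 2 lower of 57 tested, with a median log2 change of -0.10. Cell cycle genes, such as cyclins and kinesins, had 7 higher and 18 lower of 122, or 5.74% and 14.8%, near the 6.76% and 11.5% of all genes. Histone chaperones of the ASF1, NAP and related types, which deliver histones to DNA, had 2 higher and none lower of 30. Genes of histone acetylation gave no call among 36 (5 at an unadjusted p under 0.05; 1 higher and 4 lower after median scaling). For histone methylation the counts were 4 higher and 9 lower of 72, and for chromatin remodelling 3 higher and 8 lower of 136. After scaling, licensing and fork genes had 8 higher and 7 lower of 54, and cell cycle genes 20 higher and 26 lower of 124, again near the 17.7% and 17.3% of all genes. The summed level of licensing and fork genes ranged from 256 to 279 TPM in overexpression after scaling, below the 283 to 315 TPM of KY. K326 (266 to 279 TPM) and the knockout (263 to 279 TPM) also lay below KY and overlapped overexpression. The scaled core histone sums of overexpression (1349 to 2090 TPM) overlapped those of KY (1246 to 1370 TPM) only through overexpression replicate 3. Those of K326 were 1221 to 1478 TPM and those of the knockout 1230 to 1288 TPM.

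Marker lists of cell types were counted in the same comparison, and their shares are read against 6.76% of all genes higher and 11.5% lower as deposited, and 17.7% and 17.3% scaled. Green leaf markers had 10 higher and 39 lower of 252, with a median log2 change of -0.43. Their sums of 65028 to 66067 TPM in overexpression lay below the 86052 to 104322 TPM of KY, but after scaling overlapped, at 75004 to 128098 against 101365 to 141975 TPM. Markers of dividing cells had 1 higher and 11 lower of 89, or 1.12% and 12.4%. The share of higher genes was thus below that of all genes and the share of lower genes close to it. The sums of dividing-cell markers were 203 to 298 against 325 to 371 TPM as deposited, and 343 to 403 against 436 to 492 TPM scaled. Scaled sums in K326 (371 to 385 TPM) and the knockout (355 to 418 TPM) also lay below KY and overlapped overexpression.

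The other lists were matched by words in the description. Xylem stood for laccase, fasciclin or cellulose synthase, and phloem for phloem protein 2 or sieve element occlusion. Root and seed stood for root cap, oleosin, seed storage or late embryogenesis abundant, and pollen and anther for pollen allergen, sporopollenin or the like. Whether these genes mark those cells in leaf was not tested. All 4 lists had larger shares of higher genes than the whole table. Xylem markers had 16 higher and 7 lower of 51 (27 and 7 scaled), and root and seed markers 19 and 9 of 72 (28 and 9 of 73 scaled). Phloem markers had 8 and 2 of 36 (14 and 3 of 38 scaled), and pollen and anther markers 9 and 5 of 50 (19 and 5 scaled). As deposited, the sums of xylem and of root and seed markers overlapped between the groups. After scaling, all 4 lists lay clear of KY: xylem at 801 to 994 against 568 to 606 TPM, root and seed at 1868 to 2171 against 1180 to 1454, phloem at 685 to 1528 against 525 to 634, and pollen and anther at 1275 to 1403 against 811 to 825. Scaled root and seed sums were 1931 to 2092 TPM in K326 and 1824 to 2345 in the knockout, so these overlapped overexpression. For xylem, phloem, and pollen and anther, scaled K326 sums reached at most 711, 421 and 1032 TPM. Those of the knockout reached 734, 602 and 866 TPM, so both groups lay below overexpression. In the order of green leaf, dividing cells, xylem, root and seed, phloem, and pollen and anther, 75 of 386, 15 of 255, 26 of 158, 56 of 192, 2 of 60 and 58 of 165 genes were at 0 in every library. Their part in the histone result was not tested.

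**Figure D4:**
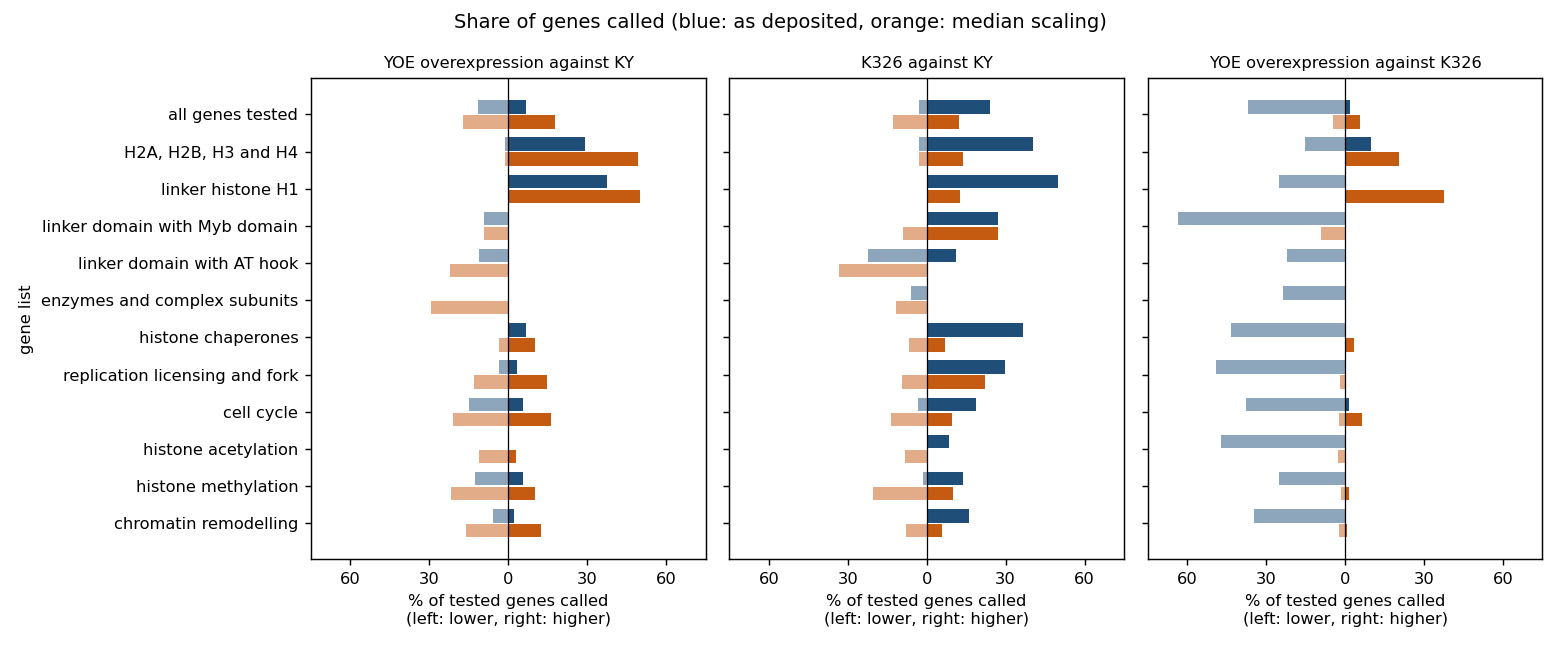
Share of the tested genes of each list (y axis) called higher (to the right) or lower (to the left) by limma at an adjusted p of 0.05, in percent (x axis), as deposited (blue) and after median scaling (orange), in 3 comparisons. In overexpression against KY, 21 of 72 core histones are higher and 1 lower, while replication licensing and fork genes have 2 higher and 2 lower of 57.

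Between the wild types, the shares of histone genes called were closer to those of all genes. In K326 against KY, 37 of the 124 tested members were higher and 5 lower as deposited, where 24% of all tested genes were higher and 2.99% lower. Core histones had 29 higher and 2 lower of 72. One of these lower calls was the H2B gene that passed the filter only through KY, and without both genes of that kind 37 of 122 members were higher and 4 lower. Median scaling left 14 higher and 8 lower of 125, against 12.3% and 13% of all genes. In percent, 29.8 of the members were higher as deposited and 11.2 after scaling, neither far from all genes. Core histones had larger shares, 40.3% as deposited and 13.7% after scaling. By class, H2A had 65.4%, H2B 50% and linker H1 50% higher as deposited, but H4 had 20% and H3 0%. After scaling these shares were 18.5, 27.8, 12.5, 0 and 0%. The share of higher among all calls went from 88.1% to 63.6% for members and from 88.9% to 48.6% for all genes. Of the calls as deposited, 14 higher and 5 lower genes were called on both scales. The count as deposited fell from 42 to 20 and 18 without KY replicates 1 and 3, and to 21 without K326 replicate 2. The scaled count of 22 went to 6, 12 and 9 without KY replicates 1, 2 and 3, and to 8 and 11 without K326 replicates 1 and 2. The marker lists also differed between the wild types. Xylem markers had 24 higher and 1 lower of 51 as deposited (10 and 4 scaled), and root and seed markers 31 and 1 of 72 (22 and 2 of 73 scaled). Root and seed sums were 1783 to 2734 TPM in K326 against 867 to 1237 in KY. Green leaf markers had 16 higher and 20 lower of 252 as deposited, and 10 and 57 of 255 after scaling. The part of these markers in the calls between wild types was not tested.

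H2A was the class with most calls between the wild types, 17 higher and 1 lower of 26, and 5 higher and 1 lower after scaling. The gene Nitab4.5_0000977g0020 was also higher here, at 32.7, 33.4 and 27.5 TPM in K326 against 12.2 to 17.3 TPM in KY (log2 change 1.07 ± 0.21 as deposited and 0.60 ± 0.19 scaled, limma adjusted p = 0.0026 and 0.035). In H2B, Nitab4.5_0009655g0010 had 24.95, 26.5 and 21.4 TPM in the K326 libraries and 9.15, 10.1 and 7.78 in those of KY (log2 change 1.34 and 0.88 scaled, limma adjusted p = 5.1e-04 and 0.017). Nitab4.5_0009487g0010 was at 18.6, 23.2 and 15.0 TPM in K326, above the 5.33 to 6.53 TPM of KY, and was called on both scales. Nitab4.5_0003782g0080, the most abundant H2B gene, stood at 69.2 ± 6.79 TPM in K326 and 33.4 ± 3.26 in KY (log2 change 1.03, limma adjusted p = 0.0026; 0.54 and 0.020 scaled). These comparisons share the KY libraries with that of overexpression against KY, so the values of both are not independent.

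Fewer H3 and H4 genes were called between the wild types. No H3 gene was called among 13 (2 at an unadjusted p under 0.05 as deposited and 0 after scaling, in limma). H4 had 3 higher of 15 as deposited and 0 after scaling, with 4 at an unadjusted p under 0.05. Of the linker H1 genes, 4 of 8 were higher as deposited, among them Nitab4.5_0006433g0010 (58.4, 81.6 and 83.6 TPM in K326 against 48.6, 47.8 and 45.7 in KY). Only Nitab4.5_0000187g0330 was called after scaling as well, at 16.1, 24.3 and 21.2 TPM in K326 (log2 change of 0.50 after scaling, limma adjusted p = 0.036).

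Several members were higher in KY than in K326. The AT hook gene Nitab4.5_0000201g0200 stood at 1.44, 2.37 and 5.11 TPM in K326 and 12.6, 12.6 and 8.47 in KY (log2 change -1.71 ± 0.34, limma adjusted p = 0.0034; -2.15 and 0.0038 scaled). Another of this class, Nitab4.5_0010112g0010, stood at 3.36, 5.19 and 9.12 TPM against 13.3, 14.2 and 11.0 (log2 change -1.08, adjusted p = 0.034 by limma; -1.54 and 0.019 scaled). The third gene of the class that was called, Nitab4.5_0000916g0110, was higher, from 2.83 to 6.16 TPM, as deposited only. Neighbouring identifiers went separate ways in one set. The H2A gene Nitab4.5_0000070g0160 was lower in K326 (2.26 ± 0.964 TPM) than in KY (5.75 ± 1.08; limma adjusted p = 0.020) and stood at 5.28 ± 1.45 in overexpression. Its neighbour, the H2B gene Nitab4.5_0000070g0170, was low in K326 and in overexpression. The H4 gene Nitab4.5_0000070g0210 in the same numbered set was higher in overexpression (7.97 ± 0.809 TPM) than in KY (3.99 ± 0.957; limma adjusted p = 0.017) and not called between the wild types. Myb-domain linker genes had 3 higher of 11 in K326, led in level by Nitab4.5_0003606g0040 (5.06, 7.68 and 5.12 TPM against 2.46, 3.34 and 2.15), and these 3 were called on both scales. The Eaf6 gene Nitab4.5_0000044g0340 was lower in K326 at 1.41 ± 0.488 against 3.23 ± 0.481 TPM (limma adjusted p = 0.017).

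Set against K326, the direction of the overexpression libraries turned with the scale. As deposited, 8 of 124 members were higher and 27 lower, where 1.89% of all tested genes were higher and 36.9% lower. With median scaling, 21 of 125 members were higher and 1 lower, against 5.59% and 4.73% of all genes. The share of higher calls thus went from 22.9% to 95.5%, where that of all genes went from 4.88% to 54.2%. Without the genes that passed the filter through 1 group, 7 of 122 members were higher and 27 lower as deposited. The scaled counts still hold the genes that scaling brought into the test through overexpression alone. Core histones had 7 higher and 11 lower of 72 as deposited, and 15 higher and none lower of 73 after scaling. Linker H1 had 2 of 8 genes lower as deposited and 3 higher after scaling. The core histones' median log2 change was 0.06 as deposited and 0.62 scaled, where the medians of all genes were -0.51 and -0.02, so that on both scales the core histone median lay above that of all genes. The scaled count of 22 was 6 and 10 without K326 replicates 2 and 3, 11 without K326 replicate 1 and 3 without overexpression replicate 2. The count as deposited, 35, went to 5 and 15 without K326 replicates 2 and 3, and to 8 without overexpression replicate 2.

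The H2A gene Nitab4.5_0000977g0020, at 41.0, 40.5 and 58.4 TPM, lay above every K326 library (27.5 to 33.4 TPM) before any scaling, with a log2 change of 0.55 as deposited (limma adjusted p = 0.050, just above the threshold) and 1.20 scaled (adjusted p = 0.0063). Nitab4.5_0000070g0160, the H2A gene that was low in K326, was higher in overexpression on both scales (log2 change 0.96 and 1.51, limma adjusted p = 0.028 and 0.025). The H4 gene Nitab4.5_0009655g0040 overlapped K326 as deposited (7.37, 10.5 and 13.9 TPM in K326) and was called after scaling (log2 change 1.10, limma adjusted p = 0.021). Of the 30 core and H1 genes at 20 TPM or more, 11 were lower as deposited, against 52.2% of all genes at that level, and after scaling 4 were higher and none lower, against 5.59% and 6.28%. Nitab4.5_0009698g0010, an H2A gene, stood at 31.9, 20.9 and 35.7 TPM in overexpression and 48.3, 54.4 and 50.9 in K326 (log2 change of -0.81 with a limma adjusted p of 0.014; -0.16 and 0.379 scaled). The linker H1 genes Nitab4.5_0005721g0020 and Nitab4.5_0002880g0020 had log2 changes of -0.68 and -0.64 as deposited (limma adjusted p = 0.039 for both), and of -0.02 and 0.02 after scaling, where neither was called. Of the Myb-domain linker genes 7 of 11 were lower as deposited, at 0.743 to 4.38 TPM in overexpression, and 1 after scaling, Nitab4.5_0000142g0120. The AT hook genes Nitab4.5_0004679g0060 and Nitab4.5_0000916g0110 and the Eaf6 gene Nitab4.5_0001005g0090 were lower as deposited only.

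The knockout gave no call among the histone genes. Of the 124 tested members, 0 passed the adjusted threshold in limma against K326, with 13 at an unadjusted p under 0.05, where 0.0192% of all tested genes were called. Median scaling also gave 0 of 125, with 7 at an unadjusted p under 0.05, where 0.0129% of all genes were called. Over all tested genes, 2543 of 31311 had an unadjusted limma p under 0.05 as deposited, and 2104 of 31064 after scaling. The smallest adjusted p among the members was 0.443 as deposited and 0.596 scaled. The median log2 change of the 72 tested core histones was 0.05, against 0.24 over all genes, and -0.19 after scaling, against 0.02. The AT hook genes had a median of -0.24 as deposited and -0.47 scaled, and none of 9 was called.

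Values of abundant genes in the knockout and K326 follow, none of them called. The H3 gene Nitab4.5_0000786g0100 stood at 106, 131 and 106 TPM in the knockout and 66.1, 85.0 and 73.6 TPM in K326 (log2 change of 0.61 ± 0.19, limma adjusted p = 0.480; 0.33 and 0.780 scaled). The H4 gene Nitab4.5_0000610g0120 stood at 33.6, 35.1 and 39.3 TPM against 20.4, 25.1 and 23.0 (log2 change 0.64 ± 0.20, limma adjusted p = 0.464; 0.36 and 0.825 scaled). The dominant H3 gene, Nitab4.5_0006824g0040, overlapped, at 239, 291 and 219 TPM against 210, 299 and 245. The highest H2A gene, Nitab4.5_0002077g0100, overlapped too, at 61.9 ± 15.2 against 66.4 ± 17.1 TPM. The less abundant H2A genes Nitab4.5_0002344g0070 and Nitab4.5_0008329g0050, picked once their values were known, had uneven libraries. For the first, the knockout had 9.23, 3.33 and 6.32 TPM, K326 8.64, 6.98 and 12.1 and overexpression 18.9, 16.2 and 7.79. For the second, the knockout had 7.25, 0.94 and 1.03 TPM, overexpression 15.5, 13.0 and 8.14 and K326 6.02, 5.18 and 8.65. Partner genes gave no call in the knockout either: none of 57 licensing and fork genes, 122 cell cycle genes or 30 chaperones passed in limma, with 4, 19 and 1 at an unadjusted p under 0.05 and none passing after scaling.

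**Figure D5:**
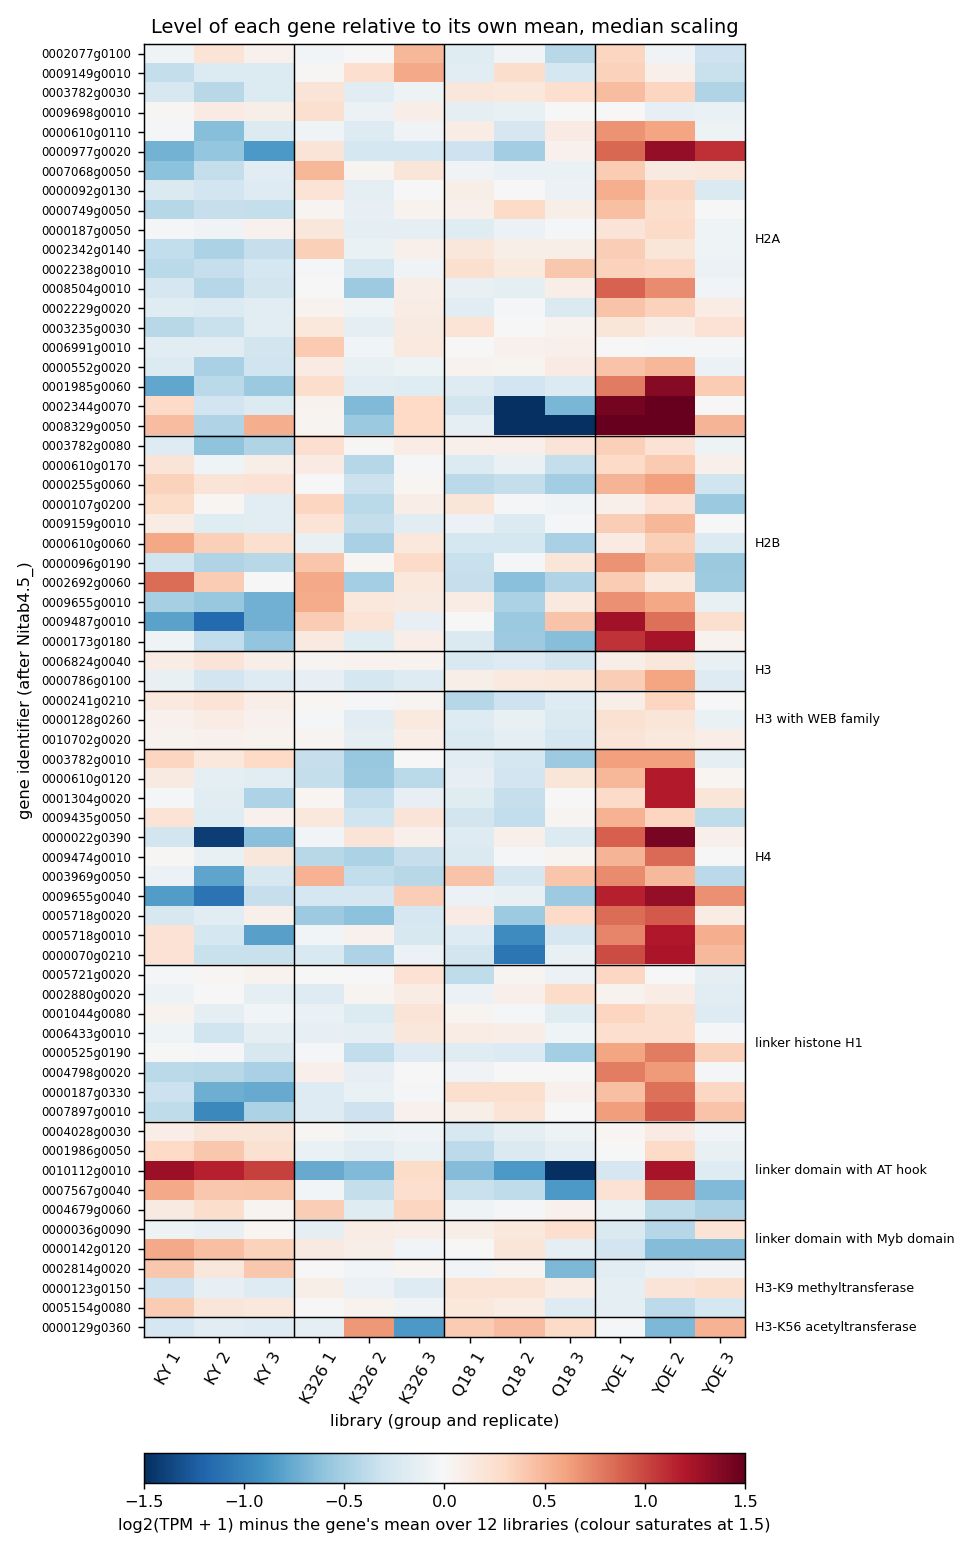
Level of each of the 66 members with a mean of at least 5 TPM (rows, grouped by class, labelled by the end of the identifier) in each library (columns), as log2(TPM + 1) after median scaling minus the gene's mean over the 12 libraries; red is above and blue below that mean, and colours saturate at 1.5. Most core histone rows are red in overexpression replicates 1 and 2 and paler in replicate 3, and many H2A rows are blue in KY.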

How the data were processed

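RNA was sequenced from 12 seedling leaf libraries of 4 groups. Salmon and StringTie are the tools given per the submitters' processing notes, without versions. Aligner, genome build and filters are not given in the sources used here. Values deposited by the authors were taken as TPM because of those tools; no unit stands in the header, and whether the values are FPKM was not settled. TPM keeps no depth, so no counting interval is given. The RefSeq gene table held 0 of the identifiers, and no genome position or sequence was used.

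Genes at 1 TPM or more in at least 3 libraries (31311) were fitted as log2(TPM + 1) in limma 3.58.1 (R 4.3.3), 1 mean per group over all 12 libraries, trend and robust, with Benjamini-Hochberg adjustment over all genes at 0.05. Fold changes on this scale understate those of low genes. Median scaling took its factors from the 20130 genes that reached 1 TPM in each library, and 31064 genes were then tested. The fit was tested on simulated data, drawn independently with the gene means and spread of the scaled values and with changes in the knockout group only. That simulation held no shift of whole libraries, so it does not bear on the calls as deposited. Nothing in the labels says that replicates were separate plants, so p-values measure the spread between these libraries, which may be technical.

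Members, lists, patterns and tests were chosen with earlier results of these data known. Genes named were the 3 highest tested genes per class, up to 4 calls per direction and comparison with the smallest p, no overlap and at least 5 TPM in the higher group, all linker genes called, any member called in the knockout, and members on (2 TPM or more) in one wild type and off (0.2 or less) in the other, of which there were 0. Not every gene the rule names is printed. Alternatives were quantile normalization, a pseudocount of 0.1, other filters, a fold of at least 2, the 6 compared libraries alone, a replicate block and each library left out. Figures were drawn with matplotlib 3.10.9, and tables made with pandas 2.3.3 and numpy 2.4.6 under Python 3.11.15.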

Additional observations from a re-analysis of the deposited data

How the results depend on the processing

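The number of histone genes called was 0 in the knockout under every alternative run. The other counts, as deposited, were 29 in overexpression against KY, 42 in K326 against KY and 35 in overexpression against K326. A fold of at least 2 left 14, 14 and 2. Median scaling gave 52, 22 and 22, and quantile normalization 48, 22 and 18. A mean of at least 5 TPM gave 16 in overexpression against KY. For overexpression against K326, testing without a filter gave 21 and the 6 compared libraries alone 14. A pseudocount of 0.1 left all counts within 1.5 times. With each library left out in turn, counts as deposited ranged from 15 to 29 in overexpression against KY, from 18 to 41 in K326 against KY and from 5 to 49 in overexpression against K326. With median scaling as well, overexpression against KY gave 57 without overexpression replicate 3, the other counts staying between 37 and 42. K326 against KY gave 6, 12 and 9 without KY replicates 1, 2 and 3, and 8, 11 and 15 without K326 replicates 1, 2 and 3. Overexpression against K326 gave 11, 6 and 10 without K326 replicates 1, 2 and 3, and 18, 3 and 33 without overexpression replicates 1, 2 and 3. Why these counts moved was not tested, beyond the shift of all genes that scaling removes; with 1 library left out, a group of 2 is fitted with the spread of all groups.

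The replicate block gave 0, 31, 39 and 24 calls in the order above, the knockout first, and with median scaling (added after the data were seen) 0, 52, 19 and 22. Same-numbered libraries of knockout and K326 had deviations correlated at 0.083, 0.336 and -0.079, and those of overexpression and KY at 0.092, 0.008 and 0.02. Those of K326 and KY were at 0.109, 0.241 and 0.017, and those of overexpression and K326 at 0.014, -0.216 and -0.135. The highest correlations with another number were 0.167, -0.068 and 0.198, then 0.019, 0.028 and 0.093, in that order of comparisons. For the last 2 comparisons they were 0.015, -0.033 and 0.098, and 0.082, 0.138 and 0.271. Replicate 2 of K326 thus went with replicate 2 of the knockout and of KY. The same number was not higher throughout, and the numbers were not taken to pair samples.

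Among the named genes, the log2 changes kept their direction and call in 173 of 179 values under alternatives for overexpression against KY, in 185 of 294 for K326 against KY and in 111 of 272 for overexpression against K326. The direction reversed for linker H1 genes in overexpression against K326 only. Nitab4.5_0002880g0020 went from -0.64 to 0.019 with median scaling, with or without the block, and to 0.048, 0.080 and 0.101 with K326 replicate 2, K326 replicate 3 or overexpression replicate 3 also left out. Nitab4.5_0005721g0020 went from -0.68 to 0.052, 0.023 and 0.079 with median scaling and K326 replicate 3, overexpression replicate 2 or overexpression replicate 3 left out. The cause was not tested. Depth is unknown, so the precision of low values cannot be given, and groups of 3 are too small to test a single library as an outlier. Reads of near-identical copies may be exchanged, which touches single genes more than class sums.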
